A study of Mus musculus with 8 samples.

Results

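The step from 6h to 12h after the start of the time course was examined in mouse leukaemia cells that carry an inducible Klf4 construct, by comparing the open regions of the genome found at the 2 times. A region was called gained when it had a peak in both 12h libraries and in neither 6h library, and lost in the reverse case. Merging the peaks of the 4 libraries on the 19 autosomes and X gave 28362 regions, of which 1469 were gained (5.18%) and 340 were lost (1.2%). Another 12205 regions (43.0%) were found in each of the 4 libraries and are called shared here, and the remaining 14348 (50.6%) had a peak in some other combination. All 8 libraries of the series together gave 32720 regions.

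The cells were GFP+ MLL-AF9 acute myeloid leukaemia cells with TetO-Klf4, sorted from leukaemic mice and taken from bone marrow. Every group carried the MLL-AF9 fusion and the construct, and the groups differ in their labels only by time: 0h, 6h, 12h and 24h, with 2 libraries each. The design describes the Klf4 construct as doxycycline-inducible, but whether doxycycline was given at 0h is not in the labels, and no group without the construct was used here. The labels give the strain field as C57BL/7, and give neither the age of the mice nor whether the 2 libraries of a time came from separate mice, so the spread between them may be technical. Chromatin was profiled by ATAC-seq, in which a transposase cuts open DNA and leaves sequencing adapters there, on 50000 cells per library.

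Klf4 is a zinc-finger transcription factor that binds GC-rich and CACCC-type sequences and is known as a regulator of monocyte differentiation, of cell-cycle arrest and of the pluripotent state. The MLL-AF9 fusion keeps myeloid progenitors in a self-renewing state through targets such as the Hoxa genes and Meis1. Open chromatin in such cells falls into gene starts, which are mostly open in every cell type, and distal elements such as enhancers, which vary more between cell states.

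The 6h libraries had 17324 and 18068 peaks and the 12h libraries 21895 and 19722. The background estimated from the peak values was 2.345 and 2.585 tags per kb in the 6h libraries, and 2.633 and 2.227 in those of 12h, so the 2 times overlapped in background. The median height of a peak at its summit was 14 tags in both 6h libraries and 16 and 15 tags at 12h. Of the 26 genes of the self-renewal programme of MLL-AF9, 25 had a peak inside or no more than 10 kb away in each of the 4 libraries. Of the lineage markers of other cells, the counts were 8 to 10 of 16 B lineage genes, 8 or 9 of 18 T and NK genes, 4 or 5 of 16 erythroid genes, 10 of 16 megakaryocyte genes and 5 or 6 of 16 stromal and endothelial genes. Cd3e, Cd4, Cd8a, Gata1, Pf4 and the haemoglobin genes Hbb-bs and Hba-a1 had no peak in any of the 4. Of the myeloid lists, 19 to 21 of 30 monocyte and macrophage genes and 13 to 16 of 22 granulocyte genes had a peak in the 4 libraries. Csf1r, Mpo and S100a8 were among the myeloid genes without one. The counts of the lists of other cells differed by at most 2 genes between 6h and 12h libraries in each list, and the part of other cells in the gained and lost regions was not tested.

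Among the members, only promoters of genes whose start lay in a gained or lost region could be read from RefSeq (GRCm38.p6, the assembly of mm10). Some of these promoters are shown as examples. Each is the 250 bases before the start, in the direction of the gene. Capitals mark CACCC, or GGGTG where the motif is on the other strand. Dapp1, Hsd17b10, Haus5 and Irf4 had a gained region, and Napb and Git1 a lost one.
Dapp1, chr3:137981550-137981799, strand minus: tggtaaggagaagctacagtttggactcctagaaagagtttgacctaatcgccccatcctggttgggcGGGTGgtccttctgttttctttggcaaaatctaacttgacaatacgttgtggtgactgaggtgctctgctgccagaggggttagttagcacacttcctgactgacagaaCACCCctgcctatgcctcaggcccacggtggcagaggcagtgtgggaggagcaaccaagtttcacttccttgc
Hsd17b10, chrX:152001646-152001895, strand plus: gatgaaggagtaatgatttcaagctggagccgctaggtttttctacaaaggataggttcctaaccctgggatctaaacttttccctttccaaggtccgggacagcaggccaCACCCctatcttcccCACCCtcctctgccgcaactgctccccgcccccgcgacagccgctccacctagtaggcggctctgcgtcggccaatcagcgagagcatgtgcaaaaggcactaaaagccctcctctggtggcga
Haus5, chr7:30664995-30665244, strand minus: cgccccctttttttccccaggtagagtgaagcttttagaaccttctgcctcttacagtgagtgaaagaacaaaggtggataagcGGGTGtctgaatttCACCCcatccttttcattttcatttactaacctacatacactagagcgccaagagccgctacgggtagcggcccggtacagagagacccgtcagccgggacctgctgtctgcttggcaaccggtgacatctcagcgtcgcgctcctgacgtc
Irf4, chr13:30748983-30749232, strand plus: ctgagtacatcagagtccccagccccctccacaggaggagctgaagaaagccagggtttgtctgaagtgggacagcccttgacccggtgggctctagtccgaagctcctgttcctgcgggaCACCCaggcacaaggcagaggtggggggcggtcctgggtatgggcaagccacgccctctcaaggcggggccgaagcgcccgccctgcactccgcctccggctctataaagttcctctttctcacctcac
Napb, chr2:148732421-148732670, strand minus: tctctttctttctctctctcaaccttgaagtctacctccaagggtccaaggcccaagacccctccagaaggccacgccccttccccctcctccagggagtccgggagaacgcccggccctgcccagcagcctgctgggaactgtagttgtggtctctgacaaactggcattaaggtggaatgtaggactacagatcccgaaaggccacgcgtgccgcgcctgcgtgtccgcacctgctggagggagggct
Git1, chr11:77493038-77493287, strand plus: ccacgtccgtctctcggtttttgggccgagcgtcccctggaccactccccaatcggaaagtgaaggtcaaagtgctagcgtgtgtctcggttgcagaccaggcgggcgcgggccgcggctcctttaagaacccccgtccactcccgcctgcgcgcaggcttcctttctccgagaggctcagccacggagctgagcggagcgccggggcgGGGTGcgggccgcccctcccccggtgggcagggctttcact
The region covered all 250 bases for Hsd17b10 and Git1, 160 for Napb, 122 for Irf4, 113 for Dapp1 and 82 for Haus5. The letters CACCC or GGGTG were found at 2 places in the Dapp1, Hsd17b10 and Haus5 promoters, at 1 in those of Irf4 and Git1, and at none in that of Napb. These examples do not stand for their classes, whose shares follow. The Chchd6 and Zfp458 promoters, in gained regions, held neither, and that of Me1, in a lost region, held them at 2 places.

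The share of promoters in gained regions that held CACCC had an interval that included the share of all promoters. Of the 144 promoters that overlapped a gained region, 59.7% held CACCC on either strand (Wilson 95% interval 51.6 to 67.4), against 65.8% of 38 promoters in lost regions (49.9 to 78.8), 60.4% of 1427 in the remaining regions, 56.5% of 7956 in shared regions and 54.4% of all 21020 promoters of the same length. Of these 21020, 11455 overlapped no region. GGGCGG, the GC box bound by Sp and Klf factors, was found in 45.8% of promoters in gained regions (37.9 to 54.0) and in 78.9% of those in lost regions (63.7 to 88.9), beside 54.4% in the remaining regions, 67.5% in shared regions and 43.0% of all. The median GC content moved with these shares, at 57.4% in gained, 66.2% in lost, 58.8% in the remaining and 62.0% in shared regions, and its part in them was not tested. CCGGAA, an ETS-type sequence, was in 13.9% of promoters in gained regions (9.17 to 20.5), 10.5% of those in lost, 17.9% of those in the remaining and 28.6% of those in shared regions, and in 15.1% of all. TGANTCA, the AP-1 site with any base in the middle, was in 6.25% of promoters in gained regions (3.32 to 11.5) and in none of the 38 in lost regions (0.0 to 9.18). It was in 5.54% of those in the remaining, 3.08% of those in shared regions and 6.18% of all. Both strands were searched for each motif, and neighbouring CACCC and GGGCGG matches can share bases. These counts cover promoters only, and distal regions were not searched.

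Gained regions outnumbered lost ones, making up 81.2% of the regions in either class. The lengths of the lists moved with this split, since both 12h lists were longer than both 6h lists. When each list was held to its 17324 strongest peaks, 754 regions were gained and 620 lost, and gained regions were 54.9% of the 2 classes. The heights of shared peaks also moved with it: the median summit pile-up in the shared regions was 18 and 19 tags at 6h and 24 and 22 at 12h, and their median peak width was 450 and 465 bp at 6h and 532 and 512 bp at 12h. Shared regions were thus higher and wider in both 12h libraries while the background overlapped, and the part of this in the number of gained regions was not tested. The smallest peak width of a list also differed, at 146 bp in both 6h lists and 158 and 161 bp at 12h. Its part in these heights and widths was not tested. With 2 libraries against 2, an exact permutation test cannot give a two-sided p below 0.33, so the counts are given without a test.

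The gained and lost regions were weak members of their lists, as were the remaining regions, so weakness was not particular to them. Gained regions had a median fold over local background of 6.34 and 6.29 in the 12h libraries, a median summit pile-up of 10 tags in each and a median within-list percentile of fold of 26.2 and 24.5, where 100 is the strongest peak of the list. Lost regions had a median fold of 6.01 and 6.19 in the 6h libraries, a pile-up of 8 and 9 tags and a percentile of 22.0 and 25.5. The remaining regions had a median fold of 5.96 and 5.89 at 6h and of 6.35 and 6.28 at 12h. Their median percentile was 21.0 and 21.9 at 6h and 26.2 and 24.4 at 12h. Shared regions reached a median fold of 9.44 and 9.54 at 6h and of 10.2 and 9.92 at 12h. Only 2 and 1 of the gained regions were in the top 10% of the 2 lists of 12h, and 77 of 1469 (5.24%) were at or above the middle of both lists. Among lost regions, 13 of 340 (3.82%) were at or above the middle of both 6h lists. At the calling threshold, the weakest gained region had a −log10 q of 2.04 and the fifth weakest of 2.11, and 76 gained regions (5.17%) had a peak below 3. The corresponding values of lost regions were 2.04 and 2.24, with 24 (7.06%) below 3. A region just outside the rule has no peak in a list, and no value there.

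**Figure D1:**
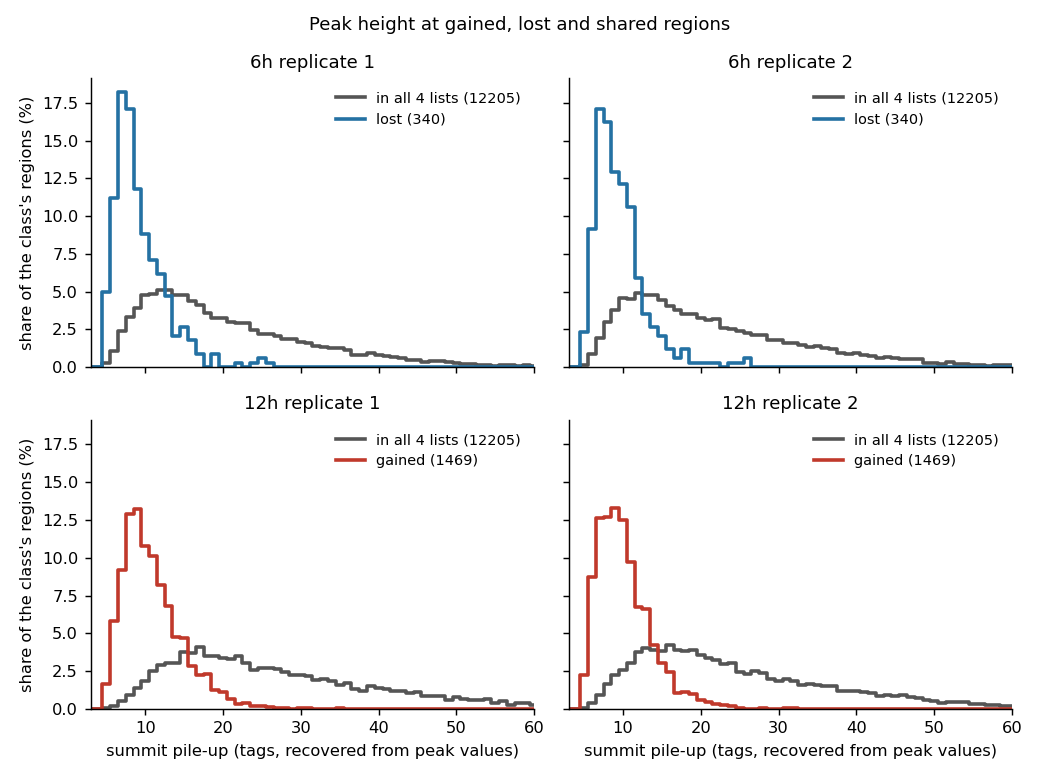
Share of regions (y axis, percent of the class) at each summit pile-up (x axis, tags) in the 4 libraries, for gained regions (red, 1469), lost regions (blue, 340) and regions in all 4 lists (grey, 12205). Gained regions centre on 10 tags and lost regions on 8 and 9, below the grey curves, whose medians are 18 and 19 at 6h and 24 and 22 at 12h.

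The strongest gained region by mean percentile was at the start of Dapp1, an adaptor protein that binds phosphoinositides (chr3:137981246-137981662, 3 bp from the start). Its fold was 13.7 and 9.87 at 12h, with 31 and 19 tags at the summit. It had no peak in either 6h library, but had one in both 0h libraries (7.18 and 8.26) and in 1 of the 24h libraries (7.44). The Dapp1 region was thus open at 0h, absent from both lists at 6h and had its highest folds at 12h. Others among the 15 strongest gained regions also lay at a start. The one 68 bp from the start of Chchd6, a component of the mitochondrial cristae complex (chr6:89595378-89595707), had folds of 12.3 and 9.87 at 12h and 9.92, 7.97 and 7.41 in 3 of the 4 libraries of 0h and 24h. The one 75 bp upstream of Hsd17b10, a mitochondrial dehydrogenase (chrX:152001338-152001912), had 11 and 10.7 at 12h and 11.6, 4.69 and 8.49 in both 0h libraries and 1 of 24h. The one 172 bp upstream of Dynlt1c, a dynein light chain (chr17:6601180-6601923), had 9.82 and 13.3 at 12h and a peak in all 4 libraries of 0h and 24h. Dynlt1c has near-identical neighbouring copies, so the placement of its reads is uncertain.

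Distal regions made up most of the other strong gained members. Anp32e, a chaperone that removes the histone variant H2A.Z, had a gained region 13.6 kb after its start (chr3:95942756-95942991). It had no peak at 0h or 6h, folds of 10.1 and 12.7 at 12h and of 9.50 and 6.84 at 24h. Of the 15 strongest gained regions it alone was present throughout 12h and 24h and absent before. A region inside Pex5, the import receptor of peroxisomes (chr6:124407263-124407627), had 13.0 and 9.12 at 12h, and one 41.3 kb upstream of Eapp, an E2F-associated phosphoprotein (chr12:54737033-54737479), had 10.4 and 11.9. A region inside Pgm2, a phosphoglucomutase (chr5:64112460-64112777), had 9.90 and 11.9. A region 42 bp outside one end of Med24, a Mediator subunit (chr11:98729337-98729554), had 12.0 and 9.92, and 3 of the 4 libraries of 0h and 24h had a peak there too. The rest of the 15 were assigned to Mtx3, Gramd1b, Emilin2, Sirpb1b and Ppm1e or to no gene, with folds of 9.55 to 11.4 at 12h. Each of the 15 had a peak in at least 1 library of 0h or 24h.

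The strongest lost region was 34.7 kb upstream of Apbb1ip, the Rap1 effector that activates integrins (chr2:22739551-22739718). Its fold was 13.3 and 10.4 at 6h, with 25 and 18 tags at the summit, and it had no peak in any of the other 6 libraries. A region 65 bp upstream of the start of Napb, a SNAP protein of vesicle fusion (chr2:148732259-148732580), had folds of 11.6 and 9.66 at 6h and of 9.82 and 6.19 at 0h. It had no peak at 12h or 24h, so its peaks stopped between 6h and 12h in every library. Dnah6, an axonemal dynein heavy chain, had a lost region of the same kind (chr6:73210527-73210777), with 12.0 and 7.78 in the 0h libraries and 9.26 and 8.65 in those of 6h. A region 5.61 kb upstream of Rcan3, a regulator of calcineurin (chr4:135439258-135439549), behaved otherwise: the 0h libraries had folds of 9.87 and 6.69, those of 6h had 8.30 and 11.5, those of 24h had 8.50 and 11.2, and only the 12h libraries lacked a peak. The region 8 bp from an end of Adat1, a tRNA deaminase (chr8:111992085-111992369), had 13.3 in 1 of the 0h libraries and 8.66 and 9.26 at 6h. The others were assigned to Slc46a2, Abcc4, Abcd3, A530021J07Rik, Fabp5, Gch1 and Agpat3 or to no gene, with folds of 7.78 to 10.0 at 6h.

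**Figure D2:**
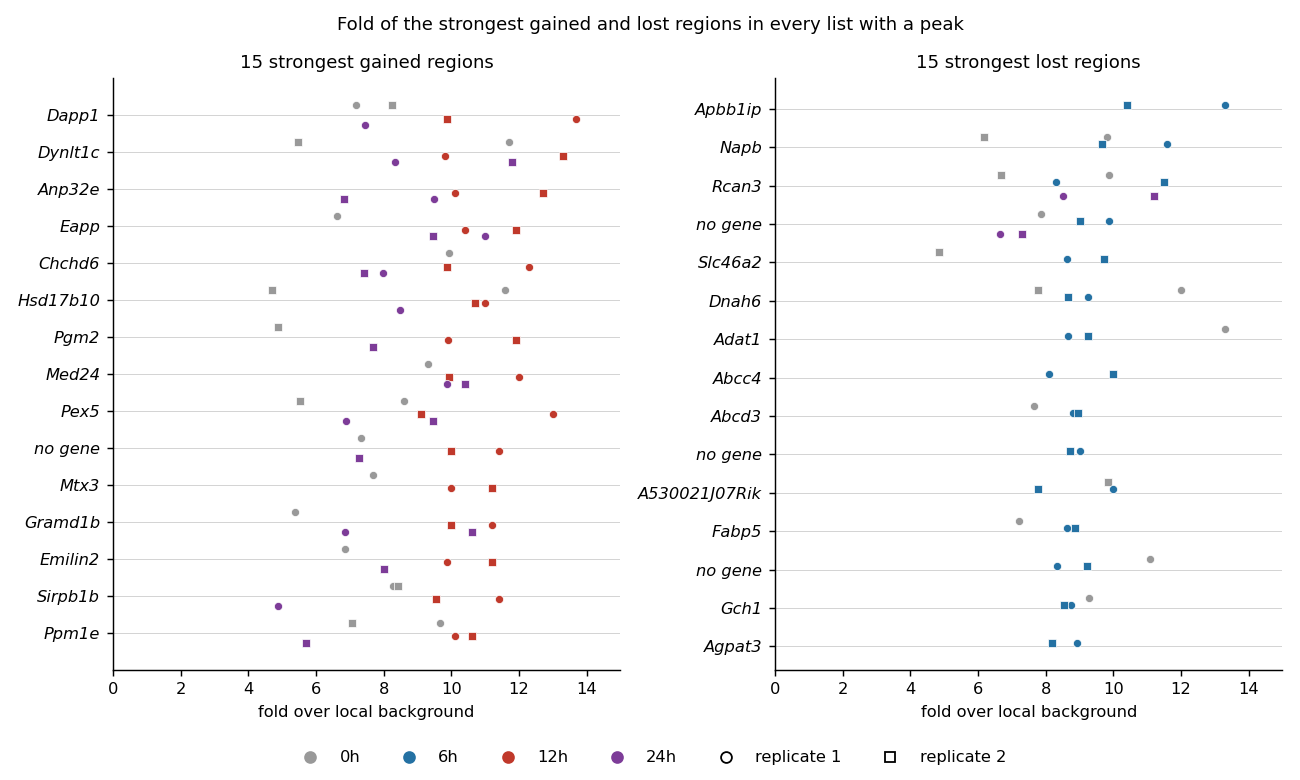
Fold over local background (x axis) of the 15 strongest gained and the 15 strongest lost regions, named by their assigned gene, in each library that has a peak (colour, time; circle, replicate 1; square, replicate 2). Gained regions have no 6h point and lost regions no 12h point by the rule; Dapp1 reaches 13.7 at 12h and Apbb1ip 13.3 at 6h, and grey 0h points accompany most gained regions.

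Presence at 0h and 24h was not used by the rule. Gained regions had a peak in 50.4% (47.8 to 52.9) and 28.0% (25.7 to 30.3) of cases in the 2 libraries of 0h, and in 26.5% (24.3 to 28.8) and 25.3% (23.2 to 27.6) in those of 24h. Lost regions had one in 48.5% (43.3 to 53.8) and 31.8% (27.0 to 36.9) at 0h, and in 23.8% (19.6 to 28.6) and 17.4% (13.7 to 21.7) at 24h. The intervals, which cover counting error only, overlapped between gained and lost regions in 3 of the 4 libraries and not in the second 24h library. At 0h the shares of gained and lost regions differed by less than these intervals. Of the shared regions, 85.8% to 96.2% had a peak in each of these libraries, and of the remaining regions 43.3%, 22.6%, 20.8% and 19.8%. Depth moved with the 0h shares: the first 0h library had 21756 peaks and a background of 2.671 tags per kb, and the second 15638 and 1.501.

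**Figure D3:**
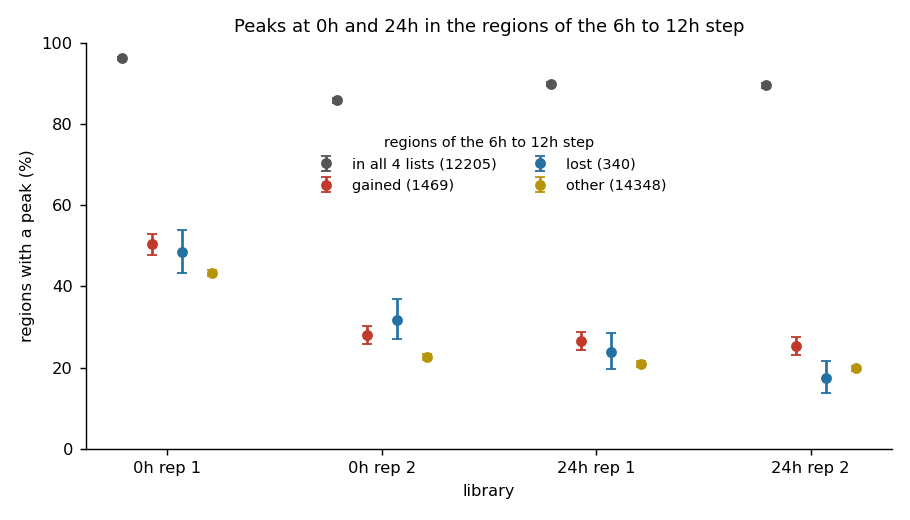
Percent of regions of each class of the 6h to 12h step (y axis) that have a peak in each library of 0h and 24h (x axis), with Wilson 95% intervals as bars. Gained (red) and lost (blue) regions lie close together at 17.4% to 50.4%, the remaining regions (yellow) at 19.8% to 43.3%, and shared regions (grey) at 85.8% or above.

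The 24h lists held 15104 and 14822 peaks, fewer than those of 12h. In both of these lists 11.4% of gained regions had a peak, and 16.0% when the 6h and 12h lists were cut to 1 length. The 24h lists were not cut, and the part of their own length was not tested. Of the gained regions, 43 of 1469 (2.93%) had peaks at 12h and 24h in each library with no peak at 0h or 6h, which is the pattern of Anp32e. The other strongest of these were near Pigm, an enzyme of GPI anchor synthesis (12.1 and 8.17 at 12h, 8.76 and 5.88 at 24h), S1pr3, a sphingosine phosphate receptor (9.88 and 9.51, then 8.44 and 5.47), and Plek, the platelet and leukocyte protein pleckstrin (9.98 and 8.97, then 5.97 and 6.39). The pattern of presence at 0h and 12h with absence at 6h and 24h was found in 111 gained regions (7.56%), among them one inside Prex1, a Rac exchange factor (6.61 and 7.57 at 0h, 9.31 and 11 at 12h). A peak in no library but the 2 of 12h was found in 403 (27.4%), the strongest named ones being near Khdrbs1, an RNA-binding protein (9.89 and 10.8), and Ube2q2 (10.3 and 9.83) and at the start of Haus5, a subunit of the augmin complex of the spindle (8.87 and 10.6). The Ube2q2 region lay 38.7 kb upstream, and the Ube2q2 promoter itself overlapped a lost region. All 4 libraries of 0h and 24h had a peak in 55 gained regions (3.74%). The shares of these combinations, and of peaks in both 24h lists, over the remaining or all regions are not given here. Whether any of them is particular to gained regions cannot be read from these counts.

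Among the 340 lost regions, 40 (11.8%, interval 8.76 to 15.6) were present throughout 0h and 6h and absent afterwards, as Napb and Dnah6 did. Another lay 30.1 kb upstream of Wnt11, a Wnt ligand (8.34 and 9.29 at 0h, 7.08 and 9.68 at 6h). A peak in the 6h libraries alone was found in 103 (30.3%), and peaks in all 6 libraries but those of 12h in 10 (2.94%). The latter held Git1, a GTPase-activating scaffold protein, with a region 64 bp upstream of its start (chr11:77492922-77493329). The 0h libraries had folds of 7.28 and 6.72, those of 6h had 7.69 and 9.42 and those of 24h had 8.69 and 9.24, with 11 to 26 tags at the summit. Peaks at 6h and 24h but not at 0h and 12h were found in 4 lost regions (1.18%), assigned to Guca2a, Gm45915, Aifm2 and Tfeb. For these combinations too, the shares over the remaining or all regions are not given here, so none is read as particular to lost regions.

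Gained and lost regions did not differ in position beyond their intervals. Ends were counted only for genes without a listed start, and the ends of other genes were not measured. A gene start or end lay within 1 kb of the summit in 14.4% of gained (12.7 to 16.3) and 14.7% of lost regions (11.3 to 18.9), against 62.9% of shared regions, 15.7% of the remaining ones and 35.9% of all. The summit was inside a gene in 55.6% of gained, 50.0% of lost and 53.7% of shared regions. No start or end of this kind lay within 100 kb in 12.8%, 15.9% and 5.13%, though such a region could still lie inside a gene. A shared region lay within 10 kb of 17.6% of gained (15.7 to 19.6) and 17.9% of lost regions (14.2 to 22.4), and of 17.1% of the shared regions themselves. By chromosome, the share of regions that were gained ran from 4.15% on chromosome 4 to 6.73% on chromosome 19, and the share lost from 0.433% on chromosome 15 to 1.71% on chromosome 3.

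A few genes had several gained or lost regions. Cdk19, a kinase of the Mediator complex, had 3 gained regions, with folds at 12h of 12.3 and 7.88, of 5.25 and 7.88, and of 4.57 and 4.95. Nln, a peptidase, Tgfbr1, a TGF-beta receptor, and Hsd17b12, an elongase of fatty acids, also had 3 each, and Med24 had 2. Regions were assigned by distance, and those of Hsd17b12 lay 59.7 and 84.0 kb upstream of its start and 67.5 kb after it. The Tgfbr1 regions were in all 4 libraries of 0h and 24h for 2 of the 3, with 12h folds of 8.11 and 8.07 and of 4.94 and 5.38, and in none for the other (4.38 and 4.59). The region with 8.11 and 8.07 lay 49.7 kb upstream of Tgfbr1, inside Col15a1, and that with 4.38 and 4.59 lay 37.6 kb upstream. Rgs2, a regulator of G-protein signalling, had 3 lost regions, of which the strongest had folds of 9.30 and 7.14 at 6h (chr1:143960448-143960669). That region lay 43.6 kb downstream of the Rgs2 start. Zmiz1, Zfp800, Rhou and Ptma had 2 lost regions each. Zmiz1, a coactivator, also had a gained one.

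Klf4 itself, the gene of the construct (chr4:55527137-55532475), had 4 regions assigned to it, of which 2 were shared and none gained or lost. The region inside the gene (chr4:55530055-55530940) had folds of 6.42 and 6.88 in the 0h libraries, of 7.78 and 7.72 in those of 6h, of 6.05 and 7.57 in those of 12h and of 6.12 and 5.26 in those of 24h. Both 12h folds were below both 6h folds, while the pile-up of 20 and 20 tags at 6h overlapped that of 19 and 22 at 12h. The region at the start (chr4:55532459-55533024) had 5.57 and 5.58 at 6h and 8.51 and 4.61 at 12h, so the 12h values lay on both sides of those of 6h. Reads of a Klf4 construct and of the endogenous exons cannot be told apart in these lists.

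In the 12205 shared regions, fold was compared by rank among these regions, so that list length does not enter. No region passed limma on the normal scores of the ranks at a Benjamini-Hochberg adjusted p under 0.05 (0.0%; smallest adjusted p 0.78). At an unadjusted p under 0.05, 404 regions (3.31%) were higher and 335 (2.74%) lower at 12h. With simulated shifts of 1, 2, 3 and 4 score units in 200 of the 12205 regions, the same test recovered 0%, 57.0%, 99.5% and 100% of them, and the score of a region varied by 0.52 (SD) between libraries of a time. The simulation gave every region this same SD, while real regions can differ in spread. The shares recovered may therefore be too high for the real data. Spearman's rho of fold across the shared regions, which are not independent, was 0.741 and 0.742 between libraries of the same time and 0.714 to 0.721 between times. The within-list percentile did not overlap between the times in 3006 regions that were higher (24.6%) and 1602 that were lower at 12h (13.1%). By rank among the shared regions alone, the counts were 2082 higher (17.1%) and 2386 lower (19.5%). The ranks of a fixed set are centred, and the counts were 2130 and 2169 by −log10 p and 2218 and 2235 by summit pile-up, so no balance to either side is read from them.

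The region with the smallest p was 133 bp upstream of Hsd17b11, an enzyme of lipid droplets (chr5:104021770-104022201). Its fold was 12.0 in both 6h libraries and 6.56 and 5.49 at 12h, and 7.77, 6.89 and 8.76 in 3 of the libraries of 0h and 24h. The difference in score, 12h minus 6h, was −2.32 (SE 0.44), with a limma p of 0.00024 and a Benjamini-Hochberg adjusted p of 0.78, and the summit pile-up went with it, at 20 and 21 tags against 11 and 8. Gclc, a subunit of the enzyme that starts glutathione synthesis, had a region 34.3 kb away with 6.90 and 7.73 at 6h and 15 and 13.4 at 12h (chr9:77828609-77828897). The same region had 12.5 and 10.3 at 0h, so its 6h values were the lowest of the series.

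Among the 10 shared regions with the largest rise in percentile, Atp10a, a lipid flippase, had 5.31 and 7.17 at 6h and 12.6 and 11.4 at 12h, 96 bp from its start (chr7:58657978-58658762). Klf3, a Krüppel-like repressor, had 4.51 and 7.41 and then 11.6 and 11.4 in a region 50.3 kb upstream (chr5:64753123-64753557). A region inside Nr3c2, the mineralocorticoid receptor, which was assigned to Arhgap10, had 6.04 and 6.83 and then 14.0 and 11.7. A region inside Niban2 had 6.37 and 7.04 in the 6h libraries, 13.1 and 12.2 in those of 12h and 13.3 and 10.7 in those of 24h. The others were near Ust, Cxcl14 and Cox16 or no gene. Among the 10 with the largest drop, the region at Kat2b, a histone acetyltransferase, had 6.75 and 9.96 at 6h, 4.30 and 4.93 at 12h and no peak in the other 4 libraries. Il17d, a cytokine, had 8.09 and 11.9 and then 5.81 and 6.04. The others were near Ube2e3, Ank2, Lao1, Ckb, Abcc1 and Micall1 or no gene. These 20 regions were picked for their difference, and none passed the adjusted test.

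**Figure D4:**
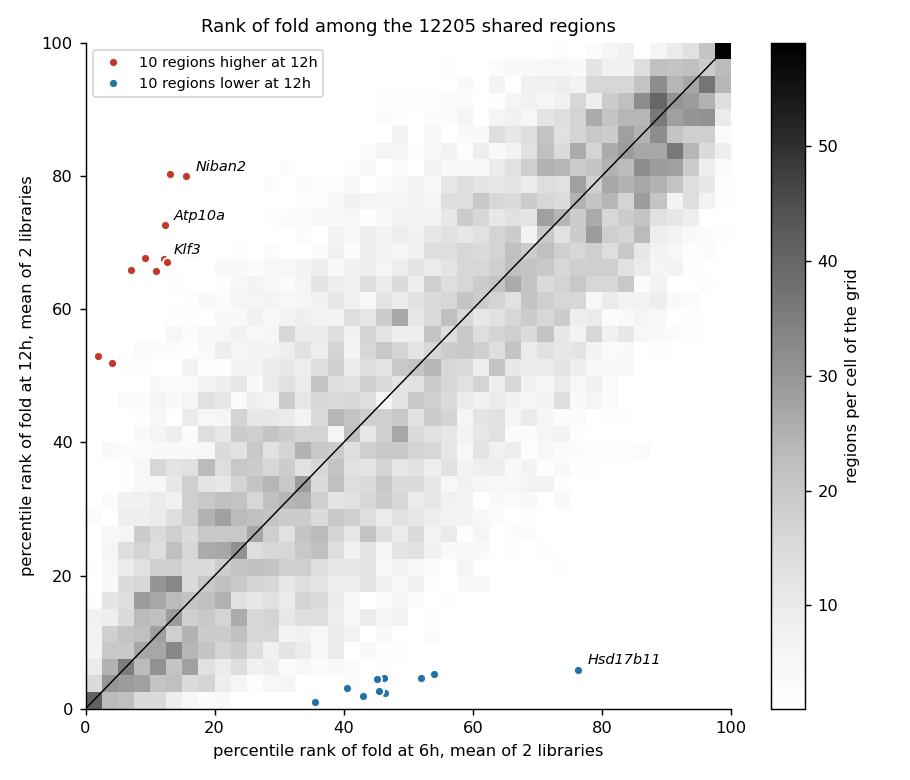
Percentile rank of fold at 12h (y axis) against 6h (x axis), each the mean of 2 libraries, over the 12205 shared regions (grey, regions per cell of the grid), with the 10 named regions higher (red) and the 10 lower at 12h (blue). Most regions lie along the line of equal rank, and the named ones at the edges, such as Hsd17b11, did not pass the adjusted test.

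The gap in rank between distal shared regions and those near a gene start or end was narrower in both 12h libraries than in both 6h libraries. The median rank of the 4528 distal regions minus that of the 7677 regions within 1 kb of a gene start or end was −31.5 and −33.7 percentile points in the 6h libraries and −26.8 and −29.6 at 12h. The 2 times did not overlap, and the difference of 4.36 points had an exact two-sided permutation p of 0.33, the smallest that 2 against 2 libraries can give. By −log10 p in place of fold the difference was 2.38 points, from −32.9 and −35.1 to −30.5 and −32.7, and by summit pile-up it was 3.11. Over the 9167 regions called in all 8 libraries the gap was −28.6 and −20.6 in the 0h libraries, −28.6 and −30.0 in those of 6h, −22.7 and −25.9 in those of 12h and −27.7 and −31.7 in those of 24h, so the 12h values lay within the range of 0h. By region, the ranks did not overlap and were higher at 12h in 19.7% of distal and 15.5% of near regions, and lower in 16.3% and 21.5%.

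Gene lists were read against all genes with a region, of which 1202 of 13109 (9.17%) had at least 1 gained and 280 (2.14%) at least 1 lost region, and by region against the 5.18% of all regions that were gained. The list of myeloid transcription factors had a gained region at 7 of 23 genes (30.4%) and no lost one. Its 23 genes had 112 regions, of which 6.25% were gained, so by region it was near the share of all regions. Apoptosis genes had 7 of 26, and 10.0% of their 70 regions were gained. NF-kB and inflammatory genes had 5 of 21 (8.06% of 62 regions), granulocyte genes 3 of 17 (10.3% of 29), integrins and adhesion 4 of 23 (5.13% of 78) and the KLF and SP family 3 of 19 (5.26% of 57). The small stromal and endothelial list had 2 of 10 genes (11.1% of 18 regions). These shares rest on 2 to 7 regions each. Lists of equal length left 4 of the myeloid factors, 3 apoptosis genes, 2 integrin and adhesion genes and 1 stromal gene with a gained region. Counting only regions within 10 kb of the start or end they were assigned by left 3 myeloid factors and 3 apoptosis genes. It left 2 genes each of the NF-kB, granulocyte, cell cycle and integrin lists. Of the KLF, monocyte, self-renewal, AP-1, stromal, pluripotency and T and NK lists it left 1 each, and of the others none. Regions farther inside a gene were dropped too, such as that of Plek, 20.8 kb after its start. The number of all gained regions also fell with lists of equal length. The share of all genes under these 2 settings is not given here, so whether the lists fell more than other genes cannot be read from these counts.

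**Figure D5:**
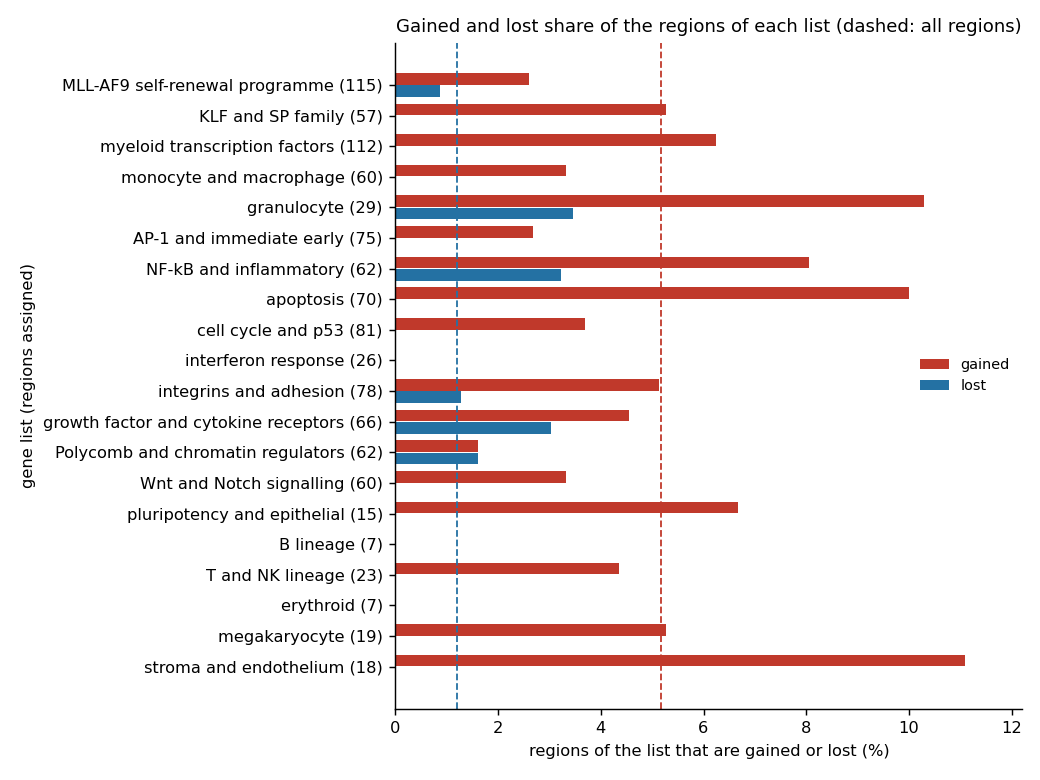
Percent of the regions assigned to the genes of each list that were gained (red) or lost (blue) (x axis), for 20 lists with the number of their regions in brackets (y axis). Dashed lines mark all regions, 5.18% gained and 1.2% lost; myeloid transcription factors lie near the line at 6.25%, and granulocyte (10.3%), apoptosis (10.0%) and stromal (11.1%) lists lie above it on 2 to 7 gained regions each.

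Among transcription factors of the myeloid lineage, Irf4, which acts in dendritic cells and macrophages, had a gained region 71 bp upstream of its start (chr13:30749111-30749320). The 0h libraries had folds of 8.56 and 6.74 and those of 12h 8.55 and 9.98, and no peak was called at 6h or 24h. Irf8, required for monocyte development, had a gained region 21.0 kb upstream (chr8:120715295-120715562) with 7.04 and 6.33 at 12h and 7.21 and 5.40 at 24h, and none before. Runx1, a factor of blood stem cells, had one 41.4 kb upstream (chr16:92867375-92867603) seen at 12h alone, with 6.86 and 6.20. Nr4a1, an immediate early nuclear receptor, had one with 6.50 and 5.79 at 12h and peaks in 3 of the libraries of 0h and 24h. The gained regions of these genes thus had different histories, with Irf4 open at 0h and Irf8 at 24h. In the 37 shared regions of the list, ranks of fold did not overlap in 8 that were higher and 3 that were lower at 12h, beside 17.1% and 19.5% of all shared regions. By −log10 p these were 13 and 3 and by summit pile-up 12 and 3.

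In the list of MLL-AF9 self-renewal genes, 3 of 25, Mef2c and Runx1 among them, had a gained and 1 a lost region. Mef2c, a factor of leukaemia stem cells, had a gained region 24.0 kb into the gene with folds of 9.57 and 5.38 at 12h and peaks in all libraries of 0h and 24h (chr13:83597473-83597995). Lmo2, a bridging cofactor, had a lost region 2.16 kb from one end of the gene (chr2:103955641-103956129) seen at 6h alone, with 4.65 and 5.40. Of the 37 shared regions of this list, ranks did not overlap in 5 that were higher and 6 that were lower, near the 17.1% and 19.5% of all shared regions. Cdk6, a cyclin-dependent kinase of haematopoietic progenitors, was in both groups: a region 42912 bp from its start had 10.4 and 9.18 at 6h and 14.0 and 13.7 at 12h, while the one at the start had 5.99 and 5.79 and then 4.57 and 4.28. The adjusted p of each was 0.78 by limma with Benjamini-Hochberg adjustment.

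Of the KLF and SP family, Sp2 had a gained region 1.65 kb after its start (8.52 and 7.72 at 12h), Klf13 one 60.5 kb upstream (5.98 and 8.54) and Klf6 one 56.7 kb upstream (5.75 and 6.14), and none had a lost region. In the 27 shared regions of the family, ranks of fold did not overlap in 1 that was higher at 12h and 11 that were lower, beside 17.1% and 19.5% of all shared regions, and the median score difference was −0.33 against −0.01 over all. Klf2, a factor of quiescence, had folds at its start of 13.3 and 13.8 at 6h and of 12.4 and 9.58 at 12h. Klf3 had 10.2 and 9.93 and then 7.73 and 8.88 at its start. Klf13 had 9.50 and 9.66 and then 7.92 and 8.10 at its start, where the summit pile-up went the other way, at 61 and 60 tags and then 78 and 70. By −log10 p the counts were 2 higher and 9 lower and by summit pile-up 4 and 5, so the balance depends on the measure. A single region of the list, that of Klf3 at 50.3 kb, had an unadjusted p under 0.05.

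Monocyte and macrophage genes had 2 of 25 with a gained region: Clec12a, a lectin receptor of myeloid cells (8.05 and 6.97, at 12h alone), and Marco, a scavenger receptor (7.49 and 6.20, in a region 61.6 kb from its start). The Clec12a region was in no other library, while Marco had a peak in the second 0h library. Of 17 shared regions 6 were higher and 3 lower, beside 17.1% and 19.5% of all, with 5 and 2 by −log10 p and 3 and 2 by pile-up. Itgam, the CD11b integrin chain, had a region 11707 bp from its start with 9.09 and 9.89 at 6h and 13.6 and 15.2 at 12h, and 9.25 and 9.37 at 24h. Granulocyte genes with a gained region were Padi4, which citrullinates histones (10.0 and 5.75, in a region 13.5 kb upstream inside Padi3), Il1r2, a decoy receptor (6.40 and 7.48), and Mmp9, a neutrophil protease (6.09 and 7.57), and all 3 also had a peak in the first 0h library. Fpr2, a formyl peptide receptor, had a lost region with 7.20 and 4.84 at 0h and 5.98 and 5.77 at 6h.

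Among inhibitors and activators of NF-kB, gained regions were assigned to Nfkbia, the inhibitor IkBa (9.23 and 6.47), Nfkb1, the p105 precursor (7.53 and 6.78), Traf1 (6.68 and 6.77) and Tnfaip3, the deubiquitinase A20 (6.72 and 6.13). Those of Nfkbia and Tnfaip3 lay 45.5 and 70.3 kb from the start of the gene. Nfkbia and Tnfaip3 are inhibitors of the pathway, and of these 4 regions that of Nfkb1 alone was seen in no library but those of 12h. A lost region lay 1.39 kb after the start of Tnf, the cytokine, with 7.57 and 5.76 at 6h and 5.91 in 1 of the 24h libraries (chr17:35200539-35200793). Nfkb1 had a lost region too, with 5.69 and 6.22 at 0h and 6.67 and 6.54 at 6h. In the 26 shared regions, 8 were higher and 5 lower, beside 17.1% and 19.5% of all, with 7 and 4 by −log10 p and 5 and 5 by pile-up. Il1b, the cytokine interleukin 1 beta, had 5.68 and 7.63 at 6h and 12.6 and 10.7 at 12h in a region 2298 bp from its start, and 8.10 and 4.79 at 0h. Ccl4, a chemokine, had 4.18 and 5.25 and then 7.46 and 8.92 in a region 8289 bp away. Neither passed the adjusted test, and both had a peak at 0h with folds between those of 6h and 12h in at least 1 library.

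Apoptosis genes with a gained region included Bcl2l11, the BH3-only protein Bim (8.55 and 7.72, in a region 71.0 kb upstream inside Acoxl), Casp8, an initiator caspase (7.69 and 8.14), and Tnfsf10, the death ligand TRAIL (5.05 and 6.42). Of these 3, the Casp8 region was seen at 12h alone, and the Tnfsf10 region had a peak at 0h but none at 24h. Cell cycle and p53 genes had 3 of 28: Gadd45a (9.41 and 7.33), Phlda3 (5.26 and 5.96) and Gadd45b (5.39 and 4.68). The 39 shared regions of that list had 4 higher and 12 lower, beside 17.1% and 19.5% of all, with a median score difference of −0.39. By −log10 p these were 4 and 8 and by summit pile-up 4 and 6. Cdkn1a, the p21 inhibitor, had 12.4 and 8.70 at 6h and 6.85 and 8.13 at 12h, with 38 and 28 and then 35 and 42 tags, so its fold did not overlap and its pile-up did. The gained Gadd45b region lay 1.28 kb upstream of its start. The shared region at that start was lower by rank at 12h, with folds of 10.2 and 11.1 and then 10.1 and 8.17. The shared region at the start of Gadd45a was lower by rank too, with 11.4 and 9.43 and then 9.93 and 8.44. Summit pile-up did not fall at either start.

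In the AP-1 and immediate early list, Fosl1 and Nr4a1 had a gained region, 2 of 20, and the 34 shared regions had 5 higher and 9 lower, beside 17.1% and 19.5% of all, with 5 and 8 by −log10 p and 4 and 6 by pile-up. Junb had 6.15 and 6.64 at its start at 6h and 5.68 and 4.97 at 12h, while its pile-up was 28 and 30 and then 40 and 34. Polycomb and chromatin regulators had 1 of 24 each: Eed, a subunit of Polycomb complex PRC2, had a gained region 38.8 kb upstream (9.70 and 10.9), and Dnmt3a, a DNA methyltransferase, a lost one (4.47 and 5.72). Their 26 shared regions had 1 higher and 8 lower, beside 17.1% and 19.5% of all, by −log10 p 2 and 9 and by pile-up 3 and 9. The higher one was at the start of Ring1, a Polycomb ubiquitin ligase, with 4.84 and 5.31 at 6h and 8.94 and 7.68 at 12h.

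Integrins and adhesion genes with a gained region included Cd47 (6.01 and 9.99), Selplg, a selectin ligand (5.40 and 6.63), and Itga9 (4.93 and 4), and Itgb5 had a lost one (6.24 and 4.07). Of the growth factor and cytokine receptors, Tgfbr1 had gained regions, and Il1rap (8.01 and 6.49) and Ccr1 (3.57 and 4.25) lost ones, 1 and 2 of 20 genes. In the Wnt and Notch list Tcf7l2 (7.41 and 8.15) and Rspo2 (7.65 and 6.75) had a gained region, 2 of 23, and Notch1 had a shared region of 9.01 and 9.34 at 6h and 6.04 and 6.13 at 12h. Interferon response genes, 14 of which had a region, had no gained and no lost one. Pluripotency and epithelial genes had 1 of 10 gained, at Cdh1, the E-cadherin (5.65 and 6.81). Of the markers of other cells, the B lineage and erythroid lists, with 5 genes each that had a region, had no gained or lost one, T and NK genes had 1 of 10 (Bcl11b), megakaryocyte genes Plek, and the stromal list Lepr (7.77 and 5.08) and 1 more.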

How the data were processed

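ATAC-seq peaks of 8 libraries were used as deposited, with a separate list for every library. BWA, SAMtools and MACS2 on mm10 are named per the submitters' processing notes, and their versions, settings, read shifting and handling of duplicates are not stated there or in the labels. The fold of each peak, a linear ratio of summit pile-up to local background, was deposited by the authors, with its −log10 p-value and −log10 q-value. The integer score, deposited by the authors, was not used for any result. The lowest −log10 q of a list was 2.00 to 2.01.

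The 4 lists of 6h and 12h were merged where peaks overlapped by 1 bp, on chromosomes 1 to 19 and X. Within a region the peak with the highest fold stood for its library. Summit pile-up was recovered from fold and −log10 p as a whole number, within a tolerance of 0.001, for 99.8% to 99.9% of peaks. Background in tags per kb is the lowest local background found, over the smallest peak width of that list. Regions went to the nearest RefSeq (GRCm38.p6) gene within 100 kb of the strongest summit, by its start for the 17274 of 21631 genes that had one in the promoter table, otherwise by either end. Ranks were tested in limma 3.58.1 (R 4.3.3) on 2 against 2 libraries, tested first on simulated data. Members, the 20 gene lists (436 of 437 entries matched) and the rules were chosen with earlier results of these data known. Named items were Klf4, the 15 strongest gained and lost regions, the 10 shared regions with the largest change each way, the 5 genes with most gained and lost regions and up to 4 members per list and direction, some of which are not reported here. Other regions, named as examples of a pattern or for a small p, were chosen after their values were seen. Distal sequence was not analysed here, since no genome was used, which replaces the planned motif search. Wilson intervals cover counting error only. Same-numbered libraries did not deviate together (correlation −0.005).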

Additional observations from a re-analysis of the deposited data

How the results depend on the processing

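The split of gained and lost regions depended on the processing. With a −log10 q of at least 5, 1415 regions were gained and 232 lost (85.9% gained), with 19.4% of gained and 10.8% of lost regions called in both 24h lists, against 11.4% and 7.65%. Lists of equal length gave 754 and 620 (54.9%), with 16.0% and 10.6%. Summit windows gave 1580 and 502 (75.9%), with 16.8% and 22.1%. Merging within 250 bp gave 1480 and 332. Leaving out each library in turn gave 2676 to 4851 gained and 677 to 2017 lost regions, 57.0% to 87.8% gained, and 4.91% to 21.0% of gained and 2.48% to 18.5% of lost regions called in both 24h lists; the rule is looser with 1 library at a time. With regions within 10 kb of the start or end they were assigned by, 17 of 40 list counts moved.

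No shared region passed limma under any setting (log2 fold, −log10 p, a filter on the mean percentile, pile-up, a library left out), with a smallest adjusted p of 0.7352 to 0.8954. With a replicate block 0 regions were called, with 378 higher and 295 lower at an unadjusted p under 0.05 and a smallest adjusted p of 0.8254. The replicate numbers did not pair the samples. The pile-up setting and the list counts under settings other than equal length and 10 kb were chosen after seeing the data.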
